A study of Mus musculus with 64 samples.

Results

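The genes of cholesterol and fatty acid synthesis were followed in 2 regions of the mouse brain, 2 h after a single injection of a psychotropic drug. They were chosen by symbol, as 30 genes that belong to these pathways by their known function. Of these, 29 were found among the 46785 genes of the isoform tables, with 159 of the 112714 transcripts, and Mvd was not analysed here. All 29 passed the filter on low values, a mean of at least 0.1 FPKM in either tissue, as 29 of 37034 genes tested. Levels are in FPKM, a fragment count scaled by transcript length and by the size of the library, and were summed over the isoforms of each gene.

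Adult male C57BL/6N mice aged 8 to 10 weeks were injected once with saline or with 1 of 6 drugs. These were the antidepressants mianserin (20 mg/kg) and venlafaxine (16 mg/kg), the antipsychotics risperidone (0.5 mg/kg) and haloperidol (1 mg/kg), methamphetamine (2 mg/kg) and ketamine (20 mg/kg). The nucleus accumbens (NAc) and the prefrontal cortex (PFCx) were sequenced from ribosome-depleted total RNA, each tissue giving 4 libraries for every drug and 8 for saline. The labels divide the saline libraries into sets I and II, 4 of each in a tissue. The drugs were dissolved in saline, to which a drop of HCl was added for haloperidol and risperidone. Whether the 4 libraries of a group came from separate mice is not stated for the sequencing, so the p-values measure the spread between these libraries.

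The mevalonate pathway builds squalene from acetyl-CoA, and a chain of further enzymes turns squalene into cholesterol. The brain makes its own cholesterol, since lipoproteins of the blood hardly cross the blood-brain barrier, and oligodendrocytes use much of it for myelin. The SREBP transcription factors, encoded by Srebf1 and Srebf2, switch these genes on when sterols in the membrane of the endoplasmic reticulum are low. Scap carries the SREBP precursors to the Golgi, and the Insig proteins hold them back.

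SREBPs bind sterol regulatory elements in promoters, often beside a CCAAT box for the factor NF-Y. RefSeq promoter sequences on GRCm38.p6 were matched for 23 of the 29 members, and 250 bases before each start were read on both strands. CCAAT was found for 18 of the 23 members, against 37.5% of 27025 genes. The box GGGCGG, read by Sp1, was found for 19 members, against 35.4% of all genes. The classical sterol regulatory element TCACNCCAC was found for 1 member, Hmgcs1, against 1.22% of all genes. The 27025 genes were not limited to those expressed here, as all members are, and a share over expressed genes was not taken. Such a match describes the letters and not a site that was bound. For the best expressed matched member of 4 roles, the window that holds these letters is shown 5′ to 3′ on the strand of the gene, with the CCAAT boxes of either strand and the sterol element in capitals. A box on the opposite strand reads ATTGG. In Fasn, a pair of CCAAT matches on opposite strands overlaps.
Hmgcs1, chr13:119690101-119690330, plus strand: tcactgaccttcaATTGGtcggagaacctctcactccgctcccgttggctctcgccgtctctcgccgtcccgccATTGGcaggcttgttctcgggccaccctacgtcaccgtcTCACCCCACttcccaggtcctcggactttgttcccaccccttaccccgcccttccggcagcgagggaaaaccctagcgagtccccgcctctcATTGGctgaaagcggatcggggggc
Msmo1, chr8:64733609-64733758, minus strand: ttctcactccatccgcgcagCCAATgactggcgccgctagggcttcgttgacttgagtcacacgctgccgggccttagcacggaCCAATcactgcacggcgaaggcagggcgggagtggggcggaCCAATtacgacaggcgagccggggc
Srebf2, chr15:82147114-82147158, plus strand: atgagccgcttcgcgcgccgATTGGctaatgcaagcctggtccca
Fasn, chr11:120824582-120824657, minus strand: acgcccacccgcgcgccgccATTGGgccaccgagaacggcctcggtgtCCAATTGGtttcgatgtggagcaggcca
Hmgcs1, Msmo1 and Fasn hold 3 CCAAT matches each and Srebf2 holds 1.

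The libraries held 1.52 to 3.26 gigabases of aligned sequence. In the NAc, 16 libraries listed at most 87827 transcripts above 0 and the other 16 at least 107099, with one saline set on each side. By this count, set I comprises saline I, haloperidol, risperidone and methamphetamine, and set II comprises saline II, mianserin, venlafaxine and ketamine. In the PFCx this count overlapped between the sets, at 108878 to 110852 transcripts in set I and 108556 to 110620 in set II. The first principal component of the log2 values separated the same sets in both tissues. Each drug therefore belongs to 1 set, and each was compared with all 8 saline libraries of its tissue and with the 4 of its own set. As a check of the dissections, 9 striatal markers summed to 628 to 839 FPKM in the NAc and 33.3 to 105 FPKM in the PFCx after saline. The highest of the PFCx sums came from replicate 4 of saline set II, and the other 7 reached at most 51.9 FPKM. After the drugs, the PFCx sums reached 96.6 FPKM for risperidone and 72.3 FPKM for ketamine, and at most 49.6 FPKM for the others.

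After saline, the members spanned a wide range of levels. Scd2, a stearoyl-CoA desaturase that makes monounsaturated fatty acids, was the most abundant, at 75.6 ± 4.01 FPKM in the NAc (SD, n = 8) and 56.4 ± 2.47 FPKM in the PFCx (SD, n = 8). Hmgcs1, the cytosolic HMG-CoA synthase at the start of the mevalonate pathway, followed in the PFCx with 28.3 ± 2.46 FPKM (SD, n = 8). Fasn, the fatty acid synthase, and Acly, which supplies its acetyl-CoA, lay between 18.6 and 21.1 FPKM in both tissues. The lowest mean over all libraries was that of Ebp, a sterol isomerase, at 2.31 FPKM. These levels are FPKM, which is scaled by transcript length.

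The spread between saline libraries differed between members. It was smallest for Scd2 in the PFCx, with a coefficient of variation of 4.38%, and largest for Pmvk in the PFCx, the phosphomevalonate kinase, at 27.8%. Drug differences in Pmvk, Mvk and Srebf1, whose coefficients of variation reached over 27.3% in at least 1 tissue, were therefore measured less precisely than those in Fdft1 or Sqle.

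**Figure D1:**
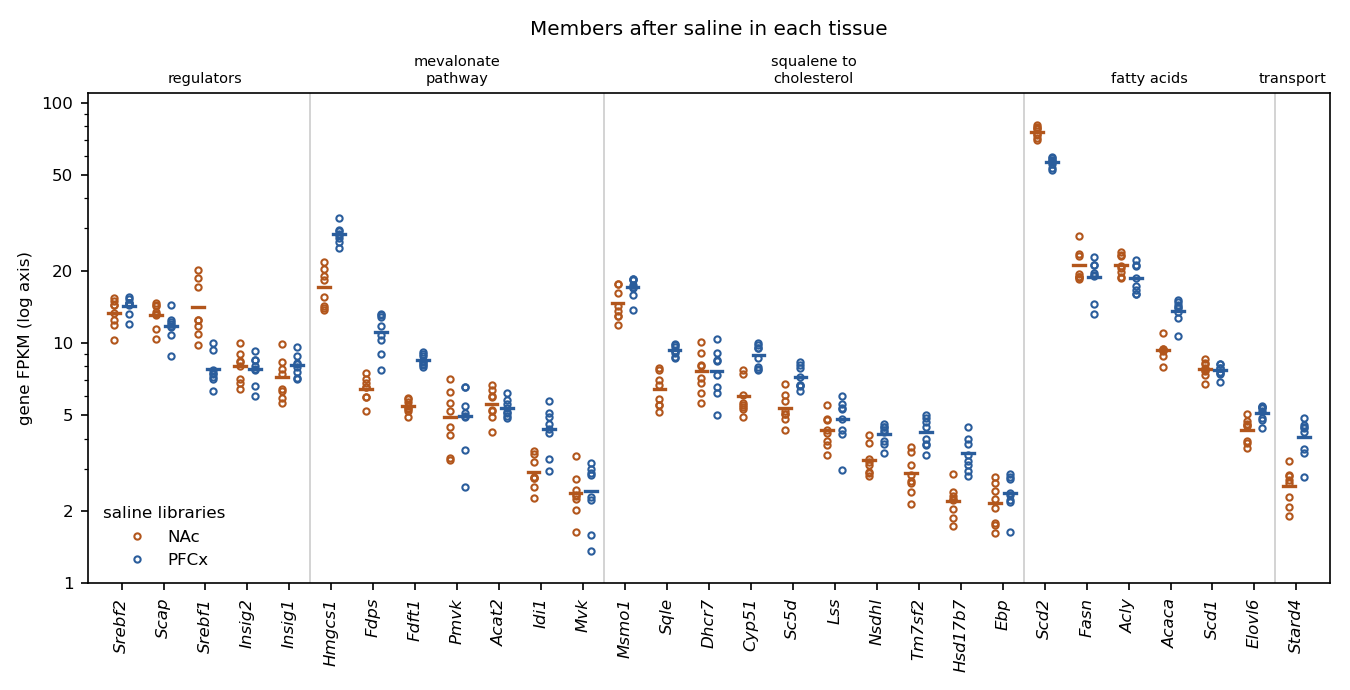
Gene FPKM of the 29 members (log axis) in the 8 NAc and 8 PFCx saline libraries, with points for libraries and bars for means, grouped by role. Scd2 is the highest member in both tissues. Scd2, Hmgcs1, Fdps, Fdft1 and Sqle do not overlap between the tissues, with Scd2 higher in the NAc and the others higher in the PFCx.

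The isoform tables list 99 protein-coding member transcripts, 36 with a retained intron, 22 processed transcripts and 2 marked for nonsense-mediated decay, by GENCODE vM21. The leading transcript over all libraries was protein-coding for 25 of the 29 members. Srebf1 (chr11:60199089-60222581) was split over 12 transcripts. Its protein-coding transcript ENSMUST00000020846, with 19 exons, held 18.9% of the gene's FPKM in the NAc and 16.4% in the PFCx, so that most of its summed value came from other transcripts. In contrast, Hmgcs1, Scd2 and Fdft1 are each listed with 1 transcript. How the fragments of overlapping isoforms were divided was estimated by Cufflinks, and the division between isoforms is less certain than the sum.

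Most of the sterol synthesis enzymes stood higher in the PFCx than in the NAc. After saline, 14 members were higher in the PFCx and 2 were lower, by limma with Benjamini-Hochberg adjustment (adjusted p under 0.05). Over all genes, 39.9% passed in either direction, 31.5% higher and 8.41% lower. In genes with a mean of at least 1 FPKM, as all members have, 47.8% passed, 31.3% higher and 16.5% lower. The members' share of 16 in 29 in either direction lies near that of the expressed genes and is not a result about the members. Their split of 14 and 2 leans further to the PFCx than that of these genes, and was not tested. The median difference was 0.157 over the members and 0.105 over all genes on the log2(FPKM + 1) scale.

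In the mevalonate pathway, 4 of 7 members were higher in the PFCx, against 31.3% of the genes with at least 1 FPKM. Hmgcs1 (chr13:119690379-119708260) ranged from 13.7 to 21.8 FPKM in the NAc, with a median of 16.9, and from 24.8 to 33.0 FPKM in the PFCx, with a median of 28.4. The tissues did not overlap, and the PFCx mean was 1.66-fold the NAc mean (log2 difference 0.71 ± 0.066 SE, limma adjusted p = 4.11e-07). Fdps, which makes farnesyl diphosphate, was 1.72-fold higher (adjusted p = 1.42e-05). Fdft1, the squalene synthase, was 1.56-fold higher (adjusted p = 1.55e-08), and Idi1 1.52-fold (adjusted p = 0.00192). Acat2, Mvk and Pmvk had log2 differences between -0.04 and 0.01 and did not pass the test.

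From squalene to cholesterol, 7 of 10 members were higher in the PFCx, against the same 31.3%. Sqle, the squalene epoxidase, ranged from 5.14 to 7.85 FPKM in the NAc and from 8.69 to 9.93 FPKM in the PFCx, without overlap. Its PFCx mean was 1.45-fold the NAc mean (limma adjusted p = 7.63e-05). Cyp51, Hsd17b7, Tm7sf2, Sc5d, Nsdhl and Msmo1 also passed, with PFCx means 1.17-fold (Msmo1) to 1.57-fold (Hsd17b7) those of the NAc. Lss, Ebp and Dhcr7 had log2 differences of 0.12, 0.10 and 0.00 and did not pass.

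Among the fatty acid genes, Acaca, the acetyl-CoA carboxylase, was 1.46-fold higher in the PFCx (limma adjusted p = 2.62e-05), and Elovl6 was 1.17-fold higher (adjusted p = 0.0155). Scd2 went the other way. It ranged from 69.7 to 80.5 FPKM in the NAc and from 52.3 to 59.5 FPKM in the PFCx, without overlap, and was 1.34-fold higher in the NAc (adjusted p = 1.57e-07). Fasn, Acly and Scd1 did not pass. Stard4, a soluble carrier that moves cholesterol between membranes, was 1.59-fold higher in the PFCx (adjusted p = 4.06e-05).

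Of the 5 regulators, only Srebf1 passed. It ranged from 9.85 to 20.2 FPKM in the NAc and from 6.30 to 9.96 FPKM in the PFCx, which overlapped narrowly, and was 1.81-fold higher in the NAc (limma adjusted p = 0.000275). Srebf2, the main regulator of the sterol genes, had a log2 difference of 0.10 (adjusted p = 0.195). The split of 14 higher and 2 lower rests on the FPKM scale. It was 22 and 0 after rescaling to the 75th percentile of the genes above 0, where Scd2 had a log2 difference of 0.02 and Srebf1 no longer passed, and 12 and 5 after rescaling to that of the tested genes, where Msmo1 and Elovl6 no longer passed. These scalings moved the median difference of the genes with at least 1 FPKM from 0.0718 to 0.398 and 0.00211. The other 12 higher members passed under each scaling.

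**Figure D2:**
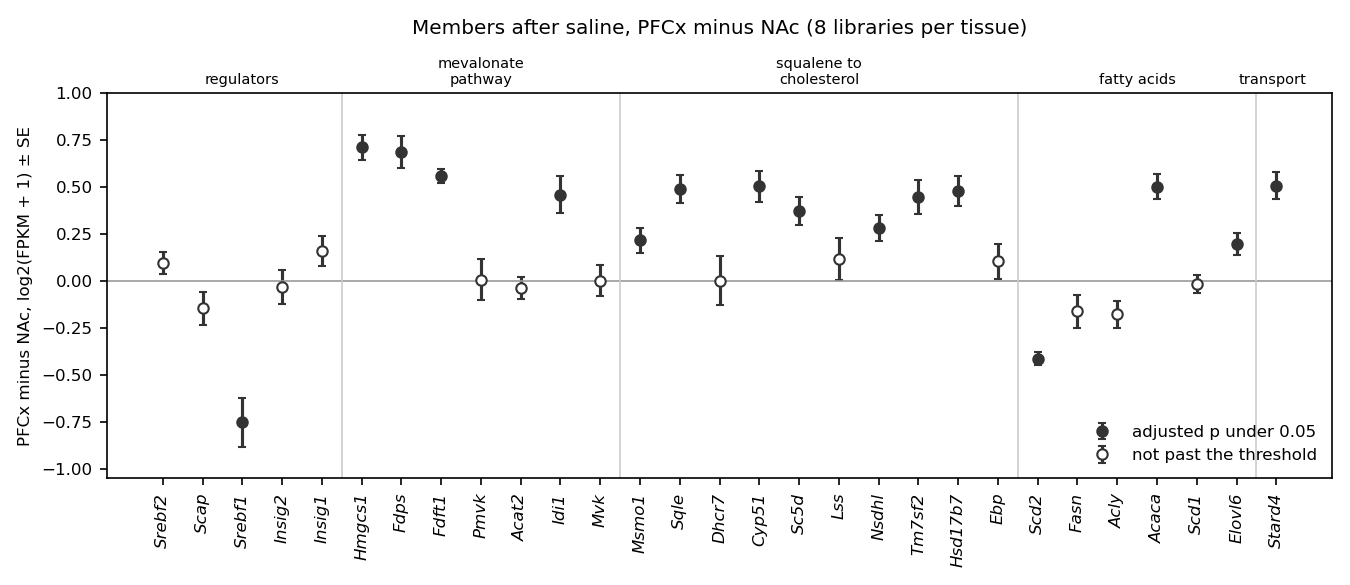
PFCx minus NAc difference of each member after saline on the log2(FPKM + 1) scale, ± SE from limma (8 libraries per tissue), with filled points for adjusted p under 0.05. The filled points lie above 0 except for Srebf1 and Scd2, and the largest difference is that of Hmgcs1 at 0.71 among the higher members.

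Markers of cell types moved with the tissue as well. All 8 oligodendrocyte markers were lower in the PFCx, with summed levels of 149 to 206 FPKM against 585 to 802 FPKM in the NAc. Astrocyte markers summed to 84.1 to 109 FPKM in the PFCx and 86.0 to 104 FPKM in the NAc. All 6 markers of cortical excitatory neurons were higher in the PFCx. The part of cell composition in the members' differences was not tested, and fewer cells of a type and less RNA per cell cannot be told apart in bulk tissue.

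Other genes of sterol and fatty acid metabolism, taken from lists of related enzymes and carriers, passed in both directions. Of 22 other sterol genes, 7 were higher and 8 lower in the PFCx, and of 29 other fatty acid genes, 12 were higher and 5 lower.

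Few drug differences of the members passed the test at 2 h. Over 12 comparisons with all saline libraries, 1 of 348 tests of a member passed, that of Stard4 in the NAc after mianserin. The differences ranged from -0.39 to 0.52 on the log2(FPKM + 1) scale. At an unadjusted p under 0.05, 52 of the 348 tests passed (14.9%), 36 higher and 16 lower, against 14.4% over all genes and 16.9% over genes with at least 1 FPKM. Against the own saline set, 1 test passed, that of Fdft1 in the NAc after ketamine, and 36 at an unadjusted p under 0.05. These 36 are 10.3% of the tests, against 7.74% over all genes and 10.3% over genes with at least 1 FPKM. Of all genes, the comparisons with all saline called 0.721%, 0.729%, 1.84%, 1.83%, 0.194% and 1.97% in the NAc for haloperidol, risperidone, mianserin, venlafaxine, methamphetamine and ketamine, and 0.162%, 0.510%, 0.667%, 0.00540%, 0.351% and 0.0162% in the PFCx. In the same order, those with the own set called 0.135%, 0.0756%, 0.167%, 0.00%, 0.0513% and 0.840% in the NAc, followed by 0.0108%, 0.138%, 0.583%, 0.0162%, 0.0837% and 0.259% in the PFCx. A single member in 348 tests is therefore near these shares.

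The limma F test over the 6 drugs at an adjusted p under 0.0001 called 0 members in either tissue, although 15 members (NAc) and 8 members (PFCx) had an unadjusted p under 0.05 against all saline. These are 51.7% and 27.6% of the members, against 45.5% and 27.2% of the genes with at least 1 FPKM. At the threshold of 0.0001 against all saline it called 0.815% of all NAc genes and 0.130% of all PFCx genes, and against the own set 0.327% and 0.0891%. At an adjusted p under 0.05, the F test against all saline took in 10 NAc members and 1 PFCx member, where 34.4% and 6.54% of the genes with at least 1 FPKM passed. Against the own saline set it took in 2 and 1, where 3.30% and 2.18% of those genes passed. The limma test of a difference in drug effect between the tissues called 0 members for each drug, with 0 to 4 members per drug at an unadjusted p under 0.05 against all saline and 0 to 6 against the own set. Over the 6 drugs these unadjusted counts are 3.45% and 6.32% of the member tests, against 9.34% and 8.88% in genes with at least 1 FPKM. Of all genes, this test called 0.0405%, 0.00%, 0.119%, 0.0513%, 0.00% and 0.313% against all saline for the drugs in the order given, and 0.0108%, 0.00270%, 0.0648%, 0.00810%, 0.00% and 1.67% against the own set.

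**Figure D3:**
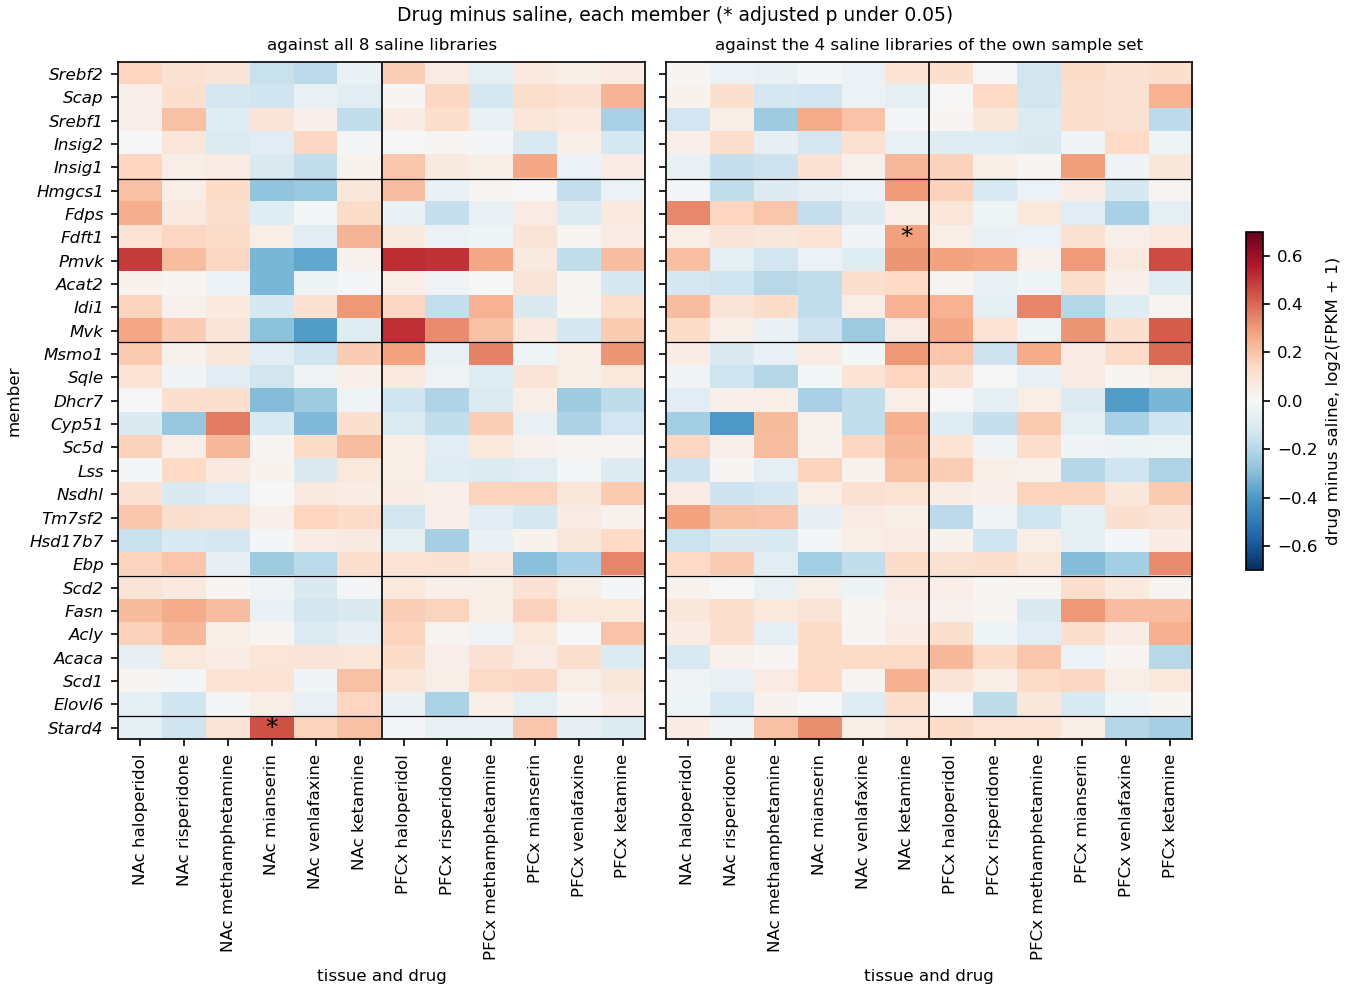
Log2(FPKM + 1) difference between each drug and saline for the 29 members in both tissues, against all 8 saline libraries (left) and against the 4 of the own sample set (right). Stars mark an adjusted p under 0.05, reached by Stard4 in the NAc after mianserin (left) and by Fdft1 in the NAc after ketamine (right).

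Stard4 (chr18:33199355-33213862, minus strand) rose after mianserin, a tetracyclic antidepressant, in the NAc. The 4 mianserin libraries held 3.15, 3.49, 4.87 and 3.85 FPKM. The 8 saline libraries ranged from 1.90 to 3.21 FPKM. The lowest mianserin library lay just below the highest saline library, and the other 3 lay above all of them. The mean was 3.84 ± 0.744 FPKM (SD, n = 4) against 2.55 ± 0.433 FPKM (SD, n = 8), a log2 difference of 0.44 ± 0.093 SE (limma adjusted p = 0.0124, exact permutation p = 0.00404). In this comparison 1.84% of all genes passed, 1.43% higher. Against the own saline set, at 2.83 ± 0.265 FPKM (SD, n = 4), the difference was 0.33 and did not pass (limma adjusted p = 0.379). It also no longer passed without replicate 3 of mianserin, at 0.35 (limma adjusted p = 0.0767).

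Most of the difference in Stard4 lay in 1 transcript. Its protein-coding ENSMUST00000025236, with 6 exons, held 75.7% of the gene's FPKM in the NAc after saline. After mianserin it reached 2.70, 2.81, 3.48 and 2.77 FPKM in the NAc. In saline set I it stood at 1.99, 1.83, 2.17 and 1.99 FPKM, and in saline set II at 2.03, 1.92, 1.66 and 1.84 FPKM. All 4 mianserin libraries lay above all 8 saline libraries. The log2 difference was 0.43 ± 0.055 SE (limma adjusted p = 7.34e-05). An exact permutation test gave p = 0.00202, the smallest that 4 against 8 libraries allow. Of the 145 member transcripts tested it alone passed here, against 0.504% of all transcripts. In the other 11 comparisons with all saline 0 member transcripts passed by limma, with 7 to 19 of 145 at an unadjusted p under 0.05, where 6.12% to 13.0% of all transcripts stood over the 12 comparisons. Of all transcripts 0.188%, 0.160%, 0.0579%, 0.0510% and 0.200% passed in the NAc for haloperidol, risperidone, venlafaxine, methamphetamine and ketamine, and 0.0232%, 0.158%, 0.351%, 0.00116%, 0.108% and 0.00347% in the PFCx, in the order of drugs given for genes.

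Against the 4 saline libraries of its own set the same transcript differed by 0.46 ± 0.068 SE (limma adjusted p = 0.0164), where 0.0973% of all transcripts passed. This call was lost without replicate 3 or replicate 4 of NAc saline set II, at 0.42 (limma adjusted p = 0.0613) and 0.46 (limma adjusted p = 0.06). In the PFCx the 4 mianserin libraries held 3.53, 3.496, 3.88 and 3.40 FPKM, and the 8 saline libraries ranged from 2.30 to 3.26 FPKM. The groups did not overlap there either, at 3.58 against 2.90 FPKM on average, yet the difference of 0.24 did not pass over all transcripts (limma adjusted p = 0.286, exact permutation p = 0.00808). The separation was not particular to mianserin. In the NAc the 4 ketamine libraries, at 2.19 to 2.49 FPKM, also lay above all 8 saline libraries for this transcript. The ketamine difference of 0.20 did not pass (limma adjusted p = 0.117, exact permutation p = 0.00202).

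Abca1, which exports cholesterol from cells and is no member, was the only gene of the 22 other sterol genes to pass a drug comparison, also in the NAc after mianserin. It held 4.18 ± 0.0444 FPKM (SD, n = 4) against 3.35 ± 0.313 FPKM (SD, n = 8), a log2 difference of 0.26 (limma adjusted p = 0.0151). Against the own saline set the difference was 0.23 (limma adjusted p = 0.0381). Of the 17 enzymes of sterol synthesis, none passed after mianserin in the NAc against either control. Hmgcs1 held 13.8 ± 1.055 FPKM (SD, n = 4) against 17.1 ± 3.14 FPKM (SD, n = 8) in all saline libraries, a log2 difference of -0.28 (limma adjusted p = 0.114), and against 14.4 ± 0.816 FPKM (SD, n = 4) in the own saline set, a difference of -0.06 (limma adjusted p = 0.943). The mean log2 level of the 17 enzymes was 2.45 after mianserin and 2.50 in the own saline set. For the 7 mevalonate members it spanned 2.43 to 2.53 after mianserin and 2.54 to 2.62 in the own saline set, without overlap. For the 10 members from squalene to cholesterol it overlapped, at 2.28 to 2.59 and 2.38 to 2.54. These means were described without a test.

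**Figure D4:**
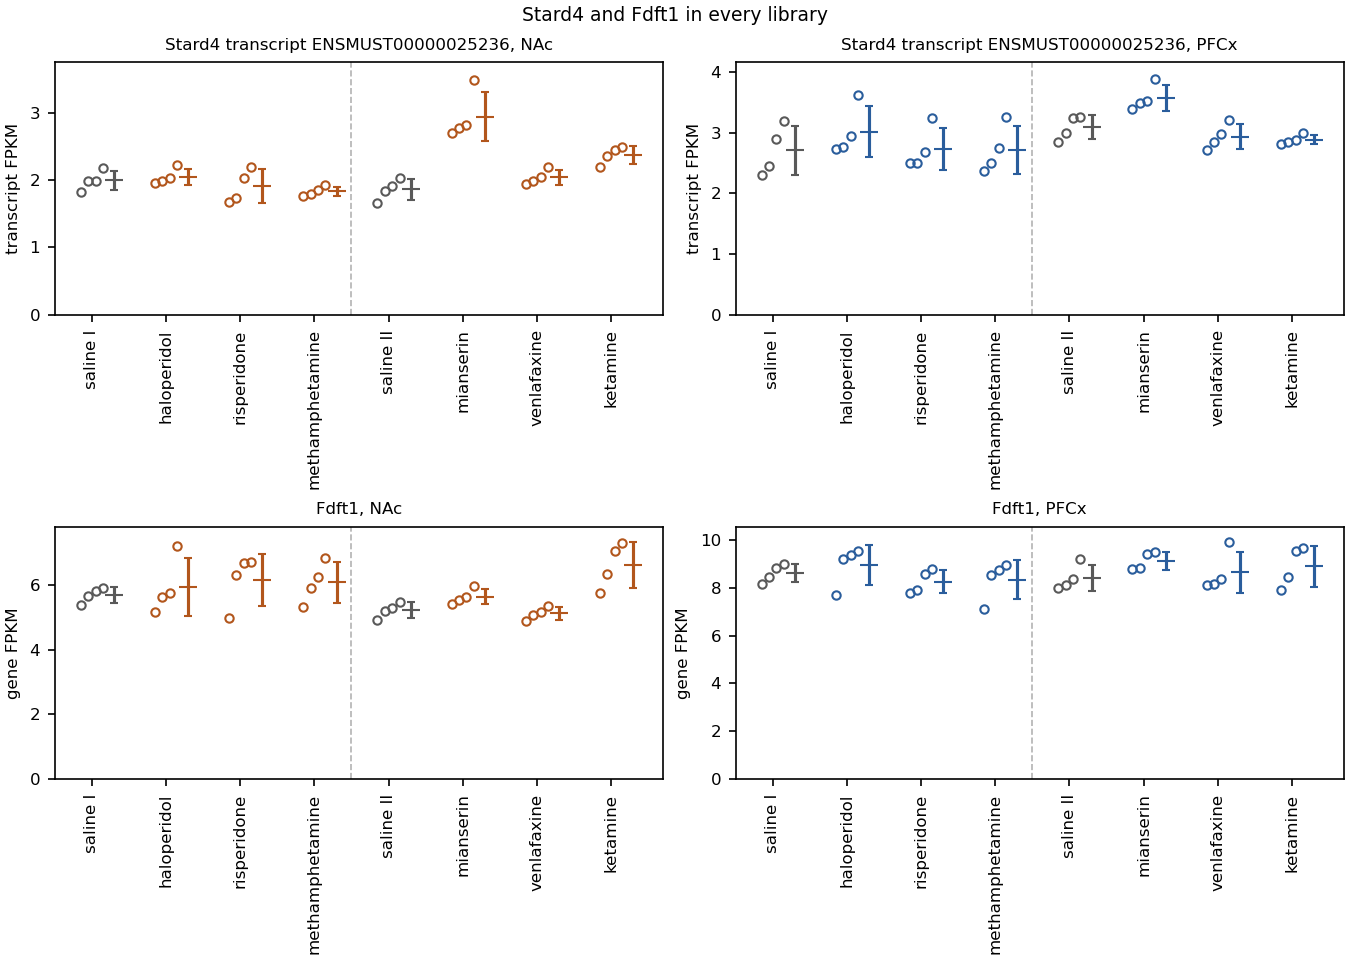
FPKM of the Stard4 transcript ENSMUST00000025236 (top) and of the gene Fdft1 (bottom) in every library of the NAc (left) and the PFCx (right), with mean and SD beside the points and a dashed line between sample sets I and II. For Stard4, the 4 mianserin libraries of the NAc, at 2.70 to 3.48 FPKM, lie above all 8 saline libraries. The 4 ketamine libraries of the NAc, at 2.19 to 2.49 FPKM, do so as well. For Fdft1, the 4 ketamine libraries of the NAc lie above saline II.

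After ketamine, an NMDA receptor antagonist, most members stood higher in the NAc than in the own saline set, although only Fdft1 passed the test. The 4 ketamine libraries held 5.77, 7.06, 6.36 and 7.32 FPKM of Fdft1. Saline set II held 5.49, 4.92, 5.31 and 5.20 FPKM. All ketamine libraries lay above this saline set, with a log2 difference of 0.29 ± 0.062 SE (limma adjusted p = 0.0413). The exact permutation p was 0.0286, the smallest that 4 against 4 libraries allow. Against the own set 0.840% of all genes passed, 0.273% higher. The call was kept only without replicate 1 of ketamine or replicate 4 of mianserin, and was lost when any 1 of the other 14 libraries of the set and tissue was left out. Against all 8 saline libraries the difference was 0.24 (limma adjusted p = 0.0713), and it passed without replicate 1 of ketamine, at 0.29 (limma adjusted p = 0.0483).

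Of the 29 members, 26 had a positive difference after ketamine against the own saline set. All 7 mevalonate members, all 10 from squalene to cholesterol and all 6 fatty acid members did, and 2 of the 5 regulators. The median difference was 0.119 over the members, against 0.0154 over all genes, of which 56.5% were positive, and against 0.0378 over genes with at least 1 FPKM, of which 61.1% were positive. At an unadjusted p under 0.05 stood 7 members, all higher, against 9.55% of all genes and 15.9% of the genes with at least 1 FPKM. After either rescaling, 25 and 26 members were positive. Against all saline libraries the median was 0.0628 with 19 of 29 positive, where 67.9% of all genes and 56.3% of those with at least 1 FPKM were positive.

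Msmo1, a sterol-C4-methyl oxidase, held 19.0, 15.3, 16.5 and 15.3 FPKM after ketamine in the NAc. In saline set II it held 14.2, 13.6, 11.9 and 13.0 FPKM, below all of these, and the log2 difference was 0.31 (limma adjusted p = 0.0882, exact permutation p = 0.0286). Saline set I, however, lay between 13.0 and 17.6 FPKM and overlapped the ketamine libraries. Hmgcs1 showed the same arrangement, with 15.9 to 19.95 FPKM after ketamine and 13.7 to 15.5 FPKM in saline set II, a log2 difference of 0.30 (limma adjusted p = 0.122), and 18.3 to 21.8 FPKM in saline set I. Its difference changed sign, to -0.14, when saline set I alone served as control. Scd1, a second stearoyl-CoA desaturase, held 8.30 to 9.82 FPKM after ketamine and 6.78 to 8.21 FPKM in saline set II, a log2 difference of 0.25 (limma adjusted p = 0.118).

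The mean of log2(FPKM + 1) over the 29 members condenses this. It was 3.08 ± 0.0375 (SD, n = 4) after ketamine in the NAc, 2.95 ± 0.0259 (SD, n = 4) in saline set II and 3.08 ± 0.0375 (SD, n = 4) in saline set I. All 4 ketamine libraries lay above the highest of saline set II, which was 2.97. The difference of 0.131 stayed between 0.119 and 0.144 when any 1 library of these 2 groups was left out. Mianserin and venlafaxine, of the same set, differed from saline set II by 0.00203 and -0.00102 on this scale. The ketamine libraries thus lay at the level of saline set I, and the other 3 groups of their own set lay lower.

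**Figure D5:**
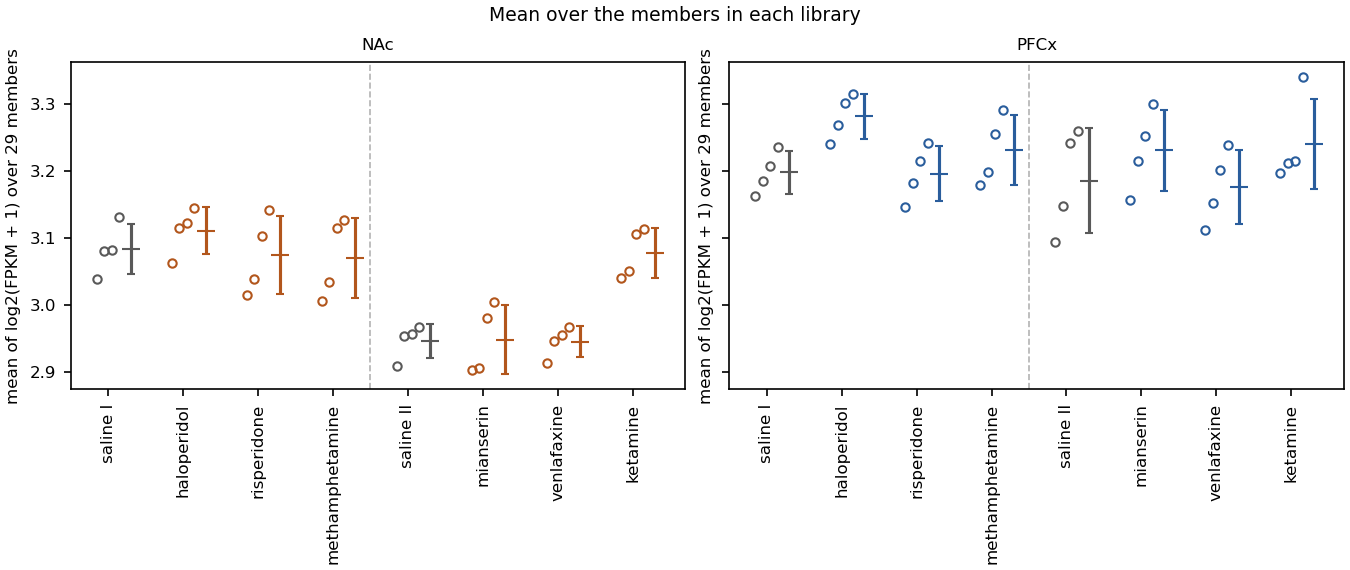
Mean of log2(FPKM + 1) over the 29 members in each library of the NAc (left) and the PFCx (right), with group mean and SD beside the points and a dashed line between sample sets I and II. In the NAc saline II, mianserin and venlafaxine lie at 2.94 to 2.95 on average and ketamine at 3.08. In the PFCx the 4 haloperidol libraries lie above saline I.

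Markers of some cell types stood apart beside the ketamine difference in the NAc. The 8 oligodendrocyte markers summed to 739 to 815 FPKM after ketamine and 585 to 648 FPKM in saline set II, without overlap, and 3 of them passed as higher, among them Mobp at 89.8 against 68.1 FPKM (limma adjusted p = 0.000735). The 6 astrocyte markers summed to 102 to 108 FPKM against 86.0 to 93.8 FPKM, also without overlap. Markers of cortical excitatory neurons summed to 42.0 to 72.7 FPKM against 20.9 to 43.1 FPKM, and 3 endothelial markers to 10.2 to 11.8 FPKM against 12.8 to 13.8 FPKM. The 9 striatal markers summed to 530 to 740 FPKM against 628 to 839 FPKM, with overlap, and 4 microglial markers averaged 19.7 FPKM in both groups. In saline set I oligodendrocyte markers summed to 700 to 802 FPKM. None of these lists was at 0, and their part in the members' difference was not tested.

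The saline sets themselves differed in the members, a comparison chosen after seeing the data. In the NAc 7 of 29 members were lower in set II than in set I, and none was higher, where 17.2% of all genes passed, 4.37% lower. The share of the genes with at least 1 FPKM was not taken here. The median difference was -0.132 over the members, 0.0811 over all genes and -0.0322 over the genes with at least 1 FPKM. These were Acly, Srebf2, Acat2, Scd2, Pmvk, Insig1 and Hmgcs1. Hmgcs1 stood at 19.8 ± 1.54 FPKM in set I and 14.4 ± 0.816 FPKM in set II (SD, n = 4 each), a log2 difference of -0.44 (limma adjusted p = 0.00757). Insig1, which senses sterols, stood at 8.37 ± 1.09 and 6.06 ± 0.392 FPKM (SD, n = 4 each), a difference of -0.40 (limma adjusted p = 0.0216). The count was 3 without replicate 1 or replicate 2 of saline set I. It was also lower with the replicate number as a block, as was the count in the PFCx. This direction holds on the FPKM scale only in part. After rescaling to the 75th percentile of the tested genes 3 members passed and 10 of 29 differences were positive. After rescaling to that of the genes above 0, a number that itself differs between the sets, all 29 members passed with positive differences and a median of 0.73, where the median of the genes with at least 1 FPKM moved from -0.03 to 0.76. In the PFCx 1 member passed, Mvk, which was lower in set II, where 6.57% of all genes passed, 3.57% lower, and this call was lost without any 1 of 6 of the 8 libraries. Set and saline label cannot be told apart here, since each saline set belongs to 1 sample set.

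In the PFCx no member passed for any drug against either control. Haloperidol, a dopamine D2 receptor antagonist, showed the most uniform direction, with 25 of 29 members positive against the own saline set and a median of 0.0911, against -0.0075 over all genes, of which 47.0% were positive, and 0.00825 over genes with at least 1 FPKM, of which 52.9% were positive. Of the 29 members, 4 had an unadjusted p under 0.05, against 6.15% of all genes and 7.62% of those with at least 1 FPKM. The mean over the members was 3.28 ± 0.0335 (SD, n = 4) in the haloperidol libraries, against 3.20 ± 0.0315 (SD, n = 4) in saline set I. All 4 haloperidol libraries lay above the highest of these saline libraries. The number of positive members was 22 and 25 after the 2 rescalings, and it ranged from 21 to 26 when 1 library of both groups was left out. The oligodendrocyte markers overlapped here, at 152 to 212 FPKM after haloperidol and 155 to 205 FPKM in saline set I. In the NAc, haloperidol left 17 of 29 members positive against the own saline set, with a median of 0.0256.

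Msmo1 recurred among the PFCx differences. It held 19.5 to 22.3 FPKM after haloperidol, 20.4 to 23.8 after methamphetamine and 20.2 to 22.5 after ketamine. The 8 saline libraries lay between 13.7 and 18.5 FPKM, below each of these groups. The log2 differences were 0.28, 0.35 and 0.31, the exact permutation p was 0.00202 in each case, and none passed over all genes (limma adjusted p = 0.151, 0.0899 and 0.316). For methamphetamine it passed without replicate 4 of venlafaxine in the fit (limma adjusted p = 0.0364). The comparisons share the same 8 saline libraries. Of all genes, 0.162%, 0.351% and 0.0162% passed in these comparisons. Saline set II stood lower than set I for Msmo1, with a log2 difference of -0.18 that did not pass (limma adjusted p = 0.281). Fits against the own saline set were repeated with 1 library left out at a time. They gave smaller differences for haloperidol, at 0.164 to 0.225, and methamphetamine, at 0.223 to 0.293. For ketamine, which belongs to set II, they gave larger ones, at 0.331 to 0.440.

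Insig1, which is itself a target of the SREBPs, held 10.6, 9.70, 10.3 and 9.09 FPKM after mianserin in the PFCx. Saline set I held 8.24, 7.95, 9.61 and 7.17 FPKM, and saline set II 8.82, 8.19, 7.60 and 7.06 FPKM. The groups overlapped in 1 saline library, and the log2 difference of 0.27 did not pass (limma adjusted p = 0.0893, exact permutation p = 0.00808). Without that library, replicate 3 of saline set I, it was 0.30 and passed (limma adjusted p = 0.0328).

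At the transcript level, an intron-retaining transcript of Sqle, ENSMUST00000162142 (chr15:59315077-59328958), was lower after mianserin in the PFCx against the own saline set. It held 0.361, 0.529, 0.506 and 0.369 FPKM after mianserin and 0.906, 0.887, 0.888 and 0.934 FPKM in saline set II, a log2 difference of -0.40 (limma adjusted p = 0.043), where 0.208% of all transcripts passed. Saline set I held 0.416 to 0.558 FPKM and overlapped the mianserin libraries, so that against all saline the difference was -0.23 (limma adjusted p = 0.401). The call against the own set was lost when any 1 of 14 of the 16 libraries was left out. The sum over all Sqle transcripts did not pass in any of the drug comparisons.

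Among the 29 other fatty acid genes, Thrsp passed most often. Thrsp, a thyroid hormone responsive regulator of lipid synthesis, was higher in the PFCx after haloperidol, risperidone, mianserin and methamphetamine, with log2 differences of 0.34 to 0.42 against all saline. Against the own set only mianserin passed, with 3.42 ± 0.399 FPKM against 2.27 ± 0.233 FPKM (SD, n = 4 each; limma adjusted p = 0.0446). Hsd17b12, an enzyme of fatty acid elongation, was higher in the NAc after ketamine against all saline, at 8.02 against 6.20 FPKM (limma adjusted p = 0.0345). Lpin1, a phosphatidate phosphatase, was higher in the NAc after mianserin against all saline, at 2.85 against 2.30 FPKM (limma adjusted p = 0.0497).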

How the data were processed

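The 64 libraries, 4 for each of 6 drugs and 2 saline sets in each tissue, were made with an Ion Total RNA-seq kit from ribo-depleted RNA and read single-end. The authors aligned the reads with TopHat2 (2.0.1) and then Tmap, and deposited FPKM per transcript from Cufflinks (2.2.1) with Ensembl models on mm10. The authors' tables also give the coverage of each transcript as reads per base, which was deposited unscaled and served here only to estimate depth. Read counts were not used here, so depth was taken as aligned gigabases, and values near 0 are the least certain. A failed status marked 136 of 7213696 values, none of them in a member.

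FPKM was summed per gene and tested as log2(FPKM + 1), a scale on which low genes change less than their FPKM, for the 37034 genes (86331 transcripts in a separate test) with a mean of at least 0.1 FPKM in either tissue. limma (3.58.1, R 4.3.3) was fitted over the 7 groups of a tissue, adjusted by Benjamini-Hochberg, at a threshold of 0.05, or 0.0001 for the F test over the drugs. The tissue fit held the 16 saline libraries with saline set as a term, and the own-set fits the 16 libraries of a sample set and tissue. Exact permutation tests were two-sided. The scripts were tested on simulated data.

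The members and lists were chosen with earlier results of these data known. Genes named at length are those that passed a drug test and the 3 best expressed of each role. Insig1, Scd1, Pmvk, Mvk, Acaca, Elovl6 and the further members named with values, and the retained-intron transcript of Sqle under the own-set test, were named after their values were seen. The alternatives covered the pseudocount, the filter, the saline set, the replicate number as a block, library scaling and each library left out. Rescaling to the tested genes, the saline set comparison and the settings of the mean over the members were chosen after seeing the data. Sample sets were read from the number of transcripts above 0, since the labels name a set only for saline.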

Additional observations from a re-analysis of the deposited data

Results flagged for a closer look

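The 196 groups examined held 4 libraries each for the drugs and 8 each for saline. In 8 of them, 1 library stood far from the others by Dixon's test, which chance does in about 1 group in 20. All 8 were drug groups of 4 libraries. For Scd2, NAc mianserin replicate 2 held 76.6 FPKM against 73.1 to 73.6 in the others, PFCx haloperidol replicate 2 held 62.3 against 58.3 to 58.4, and PFCx risperidone replicate 1 held 59.9 against 56.8 to 57.1. Acly stood at 22.4 FPKM in PFCx methamphetamine replicate 1 against 16.7 to 17.0, and Srebf2 at 18.0296 FPKM in PFCx ketamine replicate 1 against 13.8 to 14.2. Fdft1 stood at 9.92 FPKM in PFCx venlafaxine replicate 4 against 8.13 to 8.38, and Stard4 at 3.49 FPKM in NAc venlafaxine replicate 1 against 2.70 to 2.80. The mean of log2(FPKM + 1) over the 29 members was 3.34 in PFCx ketamine replicate 1 against 3.20 to 3.21 in the others. No group with one of these libraries gave a member that passed, except NAc mianserin, where the gene that passed was Stard4 and not Scd2.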

How the results depend on the processing

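The choice of saline libraries changed the counts of members that passed most often. With saline set I alone, 8 members passed for mianserin, 9 for venlafaxine and 3 for ketamine in the NAc, and 1 by the F test there. Of the member transcripts, 8, 9 and 2 passed for the same drugs in the NAc and 1 for ketamine in the PFCx. The difference of Hmgcs1 in the NAc after ketamine turned to -0.14. With saline set II alone, the NAc counts were 8 for haloperidol, 6 for risperidone, 0 for mianserin, 4 for methamphetamine and 1 by the F test, and the PFCx counts 4, 3, 1 and 1 for haloperidol, risperidone, methamphetamine and ketamine. The transcript counts were then 8, 4 and 2 for haloperidol, risperidone and methamphetamine in the NAc, and 7, 8, 2, 2 and 2 for haloperidol, risperidone, mianserin, methamphetamine and ketamine in the PFCx. The share of all genes or transcripts was not taken with a single saline set, so these counts are not results about the members. A drug compared with the saline of the other set also carries the difference between the sets. Against the own saline set, 0 members passed for NAc mianserin, 1 for NAc ketamine, and 1 transcript for PFCx mianserin.

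Rescaling to the 75th percentile of the genes above 0 gave 13, 18 and 19 members for mianserin, venlafaxine and ketamine in the NAc, 19 by the F test there, 1 for PFCx mianserin, 7 for the tissue difference of the ketamine effect, 29 between the NAc saline sets, and 2 and 5 transcripts for NAc mianserin and ketamine. In the NAc it moved the median difference of the genes with at least 1 FPKM from -0.0204 to 0.388 for mianserin. For venlafaxine this median moved from -0.0321 to 0.401, and for ketamine from 0.0248 to 0.382. The share of all genes that passed was not taken under this scaling. Scd2 then differed by 0.0209 between the tissues, with its direction turned. Rescaling to the tested genes gave 1 member each for NAc ketamine and PFCx mianserin and 3 between the NAc saline sets. A pseudocount of 0.1 gave 4 members between the NAc saline sets, 0 between those of the PFCx and 1 transcript for NAc haloperidol. Without a filter, 2 members passed for NAc mianserin and 0 between the PFCx saline sets, and a minimum of 1 FPKM gave 3 between the NAc saline sets. The cause of these changes was not tested.

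The main fits did not pair libraries by replicate number, since the labels do not say what a number shares. Deviations from the group means were correlated between libraries of the same number. The correlations ranged from -0.266 to 0.424 in the NAc and from -0.379 to 0.663 in the PFCx. Their means were 0.0981 and 0.105, against -0.0327 and -0.0313 for libraries of different numbers. Same-numbered libraries were thus more alike on average in both tissues, and whether the numbers pair them was not settled. With the replicate block, 2 and 0 members passed between the saline sets of the NAc and PFCx, against 7 and 1 without it. It also gave 1 transcript for NAc haloperidol. With the block against the own saline set, 0 members and 0 transcripts passed for NAc mianserin. Leaving out 1 library at a time gave 0 to 2 members for NAc mianserin and NAc venlafaxine, 0 to 1 for NAc ketamine, PFCx methamphetamine and PFCx mianserin, 0 to 1 transcripts for NAc haloperidol, 16 to 17 members between the tissues, 3 to 6 between the NAc saline sets and 0 to 1 between those of the PFCx. With the runs that left out a library set aside, 18 of 62 results stayed the same under every other setting. For a single difference this means the same direction and call, and for a count an equal or similar number. Depth was known only as aligned gigabases, so no counting error is given.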
